A study of Homo sapiens with 28 samples.

Results

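The 8 genes described here are HSD3B1, SULT1E1, SULT2B1, HSD17B2, HSD11B1, HSD11B2, STS and SRD5A1, enzymes of steroid hormone metabolism, out of 23533 genes in the RNA tables. They were chosen by name with their RPKM and RNA fold changes in view, so these RNA values are a description of what chose them and support nothing. The cells were EPC2, an immortalised human esophageal epithelial line. One group received the type 2 cytokine IL-13 (100 ng/ml), another vitamin D (100 nM), another IL-13 plus vitamin D, and the last was left untreated, each for 6 h. RNA was sequenced in 12 samples, 3 in each of the 4 groups, and ChIP-seq covered 16 libraries, 1 for each condition. The ChIP libraries held H3K4me3, H3K9ac and H3K27ac under all 4 treatments, STAT6 with IL-13 and untreated, and the vitamin D receptor VDR with vitamin D and untreated. Whether the samples of a group came from separate cultures is not stated in the labels, and neither is the form of vitamin D.

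Steroid hormones are not only made in glands. Many epithelia take up circulating precursors, often as sulfates, and convert them locally into active or inactive forms. Hydroxysteroid dehydrogenases switch a steroid between a hydroxyl and a keto form, sulfotransferases add a sulfate that keeps most steroids from their receptors, and sulfatase takes it off again. IL-13 acts on epithelial cells through STAT6, vitamin D acts through VDR, a nuclear receptor that itself binds a steroid-derived ligand, and HSD3B1 is a known IL-13 and IL-4 response gene in epithelial and other cells.

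The RNA tables held 1 RPKM value (reads scaled to transcript length and to library size) per group, made by the authors over the samples of that group, so no spread between samples could be computed and read depth is not known from RPKM. Markers of squamous epithelium were high, with 7 of 7 at or above 1 RPKM in all groups and KRT5 at 10500 RPKM with IL-13, 9930 with vitamin D, 9270 with both and 10400 untreated. Others of this list differed more between groups. KRT13, a keratin of the layers above the base, was at 96.7 RPKM with IL-13, 254 with vitamin D, 114 with both and 201 untreated. TP63, a regulator of basal cells, was at 72.3 RPKM with IL-13, 37.6 with vitamin D, 58.3 with both and 50.7 untreated. Markers of steroid-producing cells summed to 0.744 RPKM with IL-13, 0.201 with vitamin D, 0.74 with both and 0.23 untreated, and the gland regulator NR5A1 was at or near 0. Fibroblast markers summed to between 5.99 and 15.4 RPKM over the groups, nearly all of it COL1A1, and endothelial markers to between 0.534 and 3.18 RPKM. Of 5 leukocyte markers 1, CD68, was above 1 RPKM, while PTPRC and CD3E were at or near 0. The part of these markers in the results was not tested.

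In the authors' RNA tables (hg19) the dehydrogenase genes lie at chr1:120049826-120057681 (HSD3B1), chr16:82068858-82132139 (HSD17B2), chr1:209878136-209908295 (HSD11B1) and chr16:67465036-67471454 (HSD11B2), and the reductase SRD5A1 at chr5:6633500-6669675. The sulfotransferases lie at chr4:70706930-70725870 (SULT1E1, minus strand) and chr19:49078993-49102684 (SULT2B1), and the sulfatase STS at chrX:7137472-7272682. All but SULT1E1 are on the plus strand.

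Promoters in the RefSeq table (build GRCh38.p14, 250 bases before to 50 after the start) were found for 6 of the 8 genes; HSD17B2 and HSD11B2 are named only. The sequences of HSD3B1, the gene with the largest RNA change, of SULT1E1, the gene with the largest fall, and of SRD5A1, where a VDR peak lay on the start, are shown 5′ to 3′ on the strand of the gene. The upstream one of 2 overlapping HSD3B1 windows is given. Capitals mark matches to the STAT motif TTCNNNNGAA or to a VDR half-site, on either strand. The half-site AGGTCA was searched together with its variant AGTTCA, its variant GGGTCA and its variant GGTTCA.
HSD3B1: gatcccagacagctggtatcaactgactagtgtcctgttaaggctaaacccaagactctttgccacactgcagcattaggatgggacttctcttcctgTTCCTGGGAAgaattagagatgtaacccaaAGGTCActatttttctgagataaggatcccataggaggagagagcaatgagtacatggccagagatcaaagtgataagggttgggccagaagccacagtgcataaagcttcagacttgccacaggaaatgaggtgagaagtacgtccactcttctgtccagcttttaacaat
SULT1E1: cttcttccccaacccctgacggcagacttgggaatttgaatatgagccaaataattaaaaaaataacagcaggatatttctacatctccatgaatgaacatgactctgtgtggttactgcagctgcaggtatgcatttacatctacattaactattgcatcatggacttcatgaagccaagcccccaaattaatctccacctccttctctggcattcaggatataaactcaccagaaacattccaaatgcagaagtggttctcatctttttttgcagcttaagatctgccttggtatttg
SRD5A1: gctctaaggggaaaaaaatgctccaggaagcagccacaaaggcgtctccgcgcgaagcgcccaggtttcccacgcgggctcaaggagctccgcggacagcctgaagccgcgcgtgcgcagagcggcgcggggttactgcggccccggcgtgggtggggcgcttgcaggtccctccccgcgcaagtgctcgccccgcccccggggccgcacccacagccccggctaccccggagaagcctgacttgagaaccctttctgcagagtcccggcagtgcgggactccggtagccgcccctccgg
The HSD3B1 window lies at chr1:119506953-119507252 on the plus strand, the SULT1E1 window at chr4:69860096-69860395 on the minus strand and the SRD5A1 window at chr5:6633190-6633489 on the plus strand. The HSD3B1 window held 1 STAT match, TTCCTGGGAA, whose first base is 152 bases before the start (position -152), and 1 half-site, AGGTCA, at position -122. No match was found in the SULT1E1 and SRD5A1 windows. TTCNNNNGAA was also found in 2 of 5 STS windows, and half-sites in windows of STS and SULT2B1. The shorter-spaced TTCNNNGAA was found in 2 of 5 STS windows and in 0 windows of the other members. Of all 35116 promoter windows in the table, 6.44% held TTCNNNNGAA, 7.66% held TTCNNNGAA and 38.6% held a half-site, and all of these are descriptions of letters, not of binding.

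In the authors' deposited tables, where called means a deposited adjusted p below 0.05, IL-13 against untreated had 4 of the 8 genes called higher and 3 called lower, beside 26.3% of all 15172 genes tested (12.3% higher, 14% lower). Vitamin D against untreated had 2 called higher and 2 lower, beside 32.5% of 15177 genes (17.5% higher, 15.1% lower). IL-13 plus vitamin D against untreated had 3 called higher and 4 lower, beside 31.7% of 15971 genes (16% higher, 15.7% lower). IL-13 plus vitamin D against vitamin D had 3 called higher and 3 lower, beside 33.2% of 14859 genes (16.4% higher, 16.9% lower). In the authors' deposited tables the median log2 fold change of the 8 genes was 0.27 with IL-13 alone, 0.05 with vitamin D and -0.22 with both, each against untreated, beside medians of 0.00, -0.00 and -0.00 over all genes tested. The genes thus moved in both directions within each treatment, and the 3 contrasts against untreated share their untreated samples. In these bulk samples fewer cells that express a gene and less RNA per cell cannot be told apart, and the p-values measure the spread between samples that may be technical repeats.

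**Figure D1:**
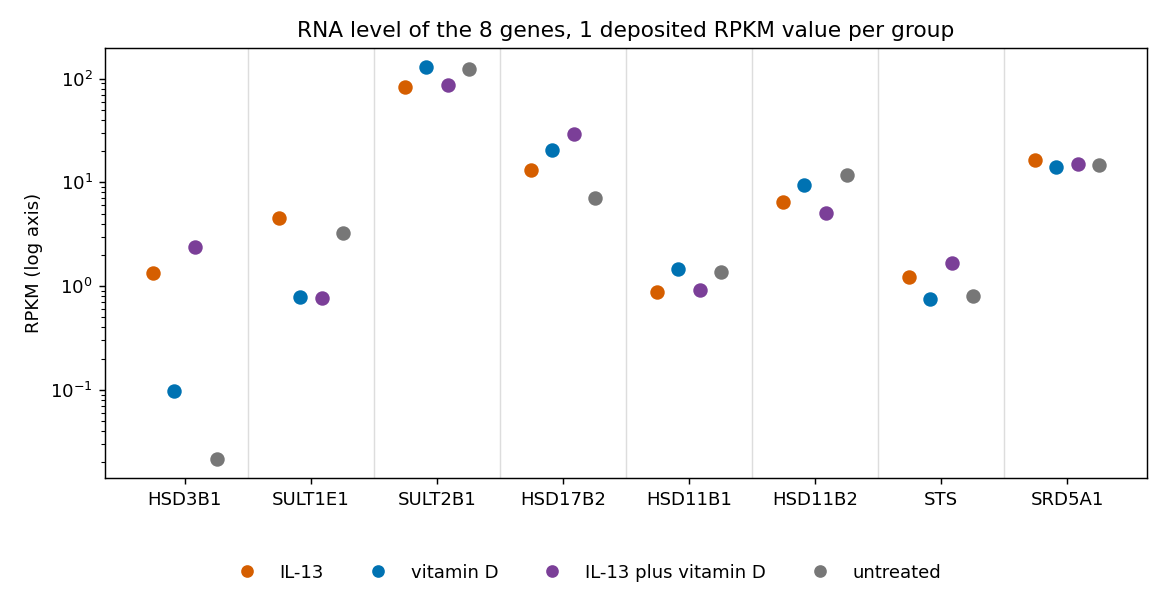
RNA level (RPKM, log axis) of the 8 genes with IL-13, vitamin D, both, and untreated; each point is the authors' single value for a group, with no error bar available. HSD3B1 is at 2.37 RPKM with both treatments against 0.0216 RPKM untreated, while SRD5A1 stays between 14.1 and 16.3 RPKM.

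HSD3B1, which converts pregnenolone and DHEA to progesterone and androstenedione, an early step in making active steroids, had 1.34 RPKM with IL-13, 0.0966 RPKM with vitamin D, 2.37 RPKM with both and 0.0216 RPKM untreated. It was almost silent in untreated cells, above the level of only 32% of genes there, and was above that of 58.8% of genes with both treatments. The plain RPKM ratio to untreated was 61.8 with IL-13 alone, 4.47 with vitamin D and 110 with both, but its size depends on the low baseline. With a pseudocount of 0.1 RPKM the ratios to untreated were 11.8 with IL-13 alone, 1.62 with vitamin D and 20.3 with both. With 0.5 RPKM they were 3.52, 1.14 and 5.51 in the same order, and with 1 RPKM 2.29, 1.07 and 3.3. Both treatments together came first and IL-13 alone second. The same amount was added to every group, so a pseudocount cannot change this order.

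In the authors' deposited tables HSD3B1 rose with IL-13 by a log2 fold change of 2.79 ± 0.19 (SE derived from the deposited p; adjusted p 8.26e-47) and with both treatments by 4.47 ± 0.234 against untreated (adjusted p 1.31e-79). Log2 RPKM ratios at a pseudocount of 0.1 RPKM were 3.56 and 4.35 in the same order, so the SE does not bound the size of the rise. Vitamin D alone gave 0.42 ± 0.181 in the authors' deposited table, where the adjusted p, 0.0606, missed the threshold. Against vitamin D alone, the combination gave 3.33 ± 0.185 in the authors' deposited table (adjusted p 1.64e-70). The tables disagreed by 0.73 on the log2 scale about this gene, so it had no test of IL-13 plus vitamin D against IL-13 alone; the RPKM were 2.37 with both and 1.34 with IL-13, a ratio of 1.78, or 1.44 with a pseudocount of 1 RPKM. HSD3B2, a near-identical neighbour that works in adrenal and gonads, was listed at 0.00637 RPKM with IL-13, at 0 with vitamin D, at 0.00553 with both and at 0 untreated, and reads shared by the pair could have been split in counting.

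HSD3B1 had 2 factor regions. A STAT6 region with IL-13 lay in an intron at chr1:120052610-120053049 (hg19), 3.1 kb downstream of the start, with the authors' fold enrichment of 5.44 against a median of 4.94 over the 4802 regions of that list. A VDR region with vitamin D lay 9.4 kb upstream at chr1:120040167-120040599 with a fold enrichment of 13.7, against a median of 6.72 over 9224 regions. Neither was called in the untreated library of its factor, and the STAT6 background was 3.05 fragments with IL-13 against 1.46 untreated. No H3K4me3, H3K9ac or H3K27ac region was assigned to HSD3B1 in any of the 12 histone libraries, those with IL-13 included, so no peak of these marks was called at the depth of these libraries where the RNA rose.

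HSD17B2, which oxidises estradiol to estrone and testosterone to androstenedione and so inactivates sex steroids, had 13 RPKM with IL-13, 20.7 RPKM with vitamin D, 29 RPKM with both and 7.02 RPKM untreated. It was the only one of the 8 genes called higher with each treatment alone and with both. Its log2 fold change against untreated in the authors' deposited tables was 0.84 ± 0.0766 with IL-13 alone (adjusted p 4.33e-26), 1.58 ± 0.0678 with vitamin D (adjusted p 1.83e-117) and 2.02 ± 0.0694 with both (adjusted p 5.7e-184). The IL-13 effect in the presence of vitamin D was 0.44 ± 0.0586 in the authors' deposited table. The IL-13 effect with vitamin D minus that without it, derived from the tables, was -0.39 ± 0.0965 (z test, Benjamini-Hochberg adjusted p 0.00362), and 2.42% of 14734 genes (1.41% higher, 1.01% lower) were called in that test. Of the 7 members tested in it, 1 was called higher (STS) and 1 lower (HSD17B2). With the variance multiplied by 1.5 the HSD17B2 difference no longer passed.

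**Figure D2:**
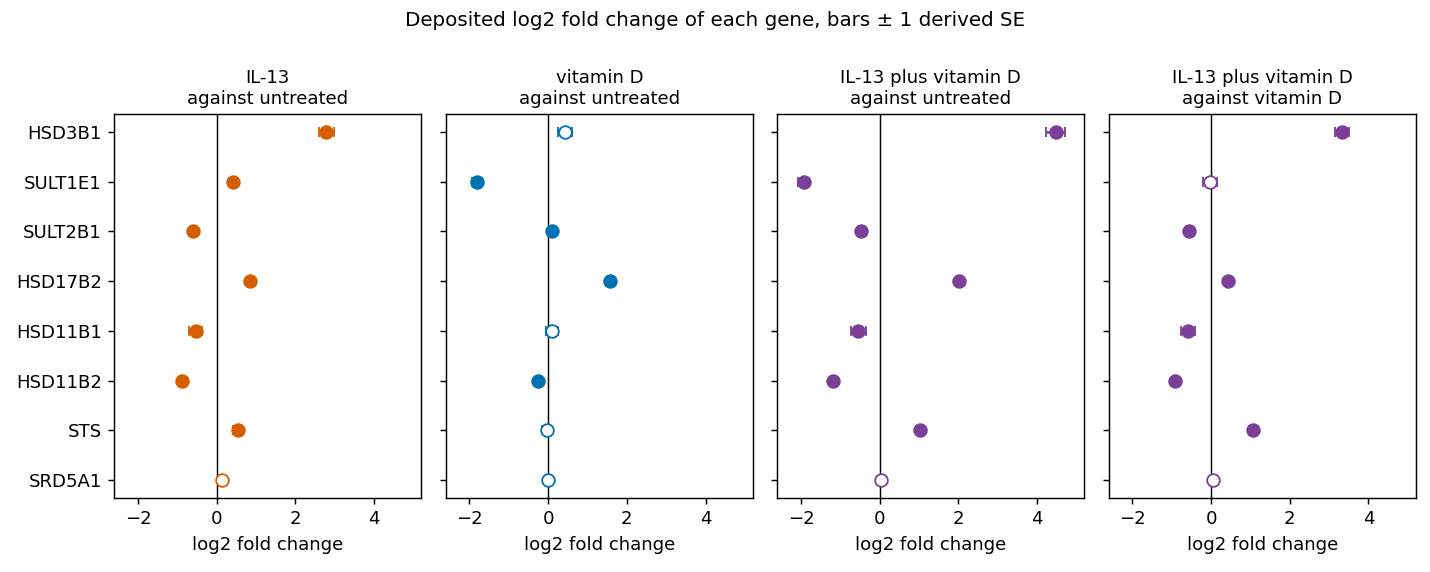
Deposited log2 fold change of each gene in the 4 deposited comparisons; points are the authors' values, bars are ± 1 SE derived from the deposited p, filled points have an adjusted p below 0.05. HSD17B2 lies right of 0 in all 4 panels, SULT1E1 lies left of 0 at -1.81 with vitamin D and -1.93 with both, and SRD5A1 is open in every panel.

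Counting upstream regions that were also assigned to SDR42E1, HSD17B2 also had the most ChIP regions of the 8 genes. Its VDR region in an intron, at chr16:82115738-82117151 (hg19), 47.6 kb downstream of the start, had a fold enrichment of 79.5 with vitamin D and ranked 33 among the 9224 VDR regions of that library. In the untreated library the region had a fold enrichment of 16.7, and it was the only VDR region of the 8 genes called there. The ratio of the 2 libraries was 4.76 at this region, against a median of 2.49 over the 1570 regions called in both, of which 110, or 7.01%, had a ratio at least as large. The VDR pileups with vitamin D had been scaled and the libraries are single, so the ratio is a description.

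H3K27ac, a mark of active enhancers and promoters, was called over this VDR region with vitamin D at a fold enrichment of 6.93 and with both treatments at 7.03, and was not called there with IL-13 alone or untreated. That pattern held for 126 of the 9224 VDR regions, or 1.37%, and for 505 of 100632 H3K27ac regions, or 0.502%. The background of the H3K27ac libraries, a measure of depth, was 0.512 fragments with IL-13 alone, 0.731 with vitamin D and 0.565 with both, against 1.4 untreated. The untreated library, with no call here, was thus the deepest of the mark, and the IL-13 library, also with none, the shallowest. The part of depth in these calls was not tested. H3K9ac, another acetyl mark of active chromatin, was called over one edge of the VDR region in the vitamin D library (fold enrichment 4.77) and, as a separate region, over its other edge in the combined library (4.09). No H3K9ac region overlapped it in the IL-13 and untreated libraries.

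STAT6 was called at 3 HSD17B2 regions with IL-13, at 27.5, 29.2 and 35.8 kb downstream of the start, with fold enrichments of 4.2, 3.95 and 5.44. All 3 overlapped H3K27ac regions that were also called in untreated cells. The third STAT6 region, chr16:82104368-82104890 in an exon, shared 299 bases with a second, weak VDR region, chr16:82104592-82105115, of fold enrichment 3.84. Of the STAT6 regions with IL-13, 312 of 4802, or 6.5%, overlapped a VDR region with vitamin D, and 3.43% of the VDR regions overlapped a STAT6 region. An H3K27ac region, chr16:82102529-82106677 when joined over the libraries, covered this shared place in every library. Its highest fold enrichments were 19.2 with IL-13, 22.5 with vitamin D, 19.8 with both and 25 untreated. The highest summits lay outside the 299 shared bases, so these values are not the height at the shared place.

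At the HSD17B2 start H3K4me3, a mark of active promoters, had a fold enrichment of 4.35 with IL-13, 11.7 with vitamin D, 9.27 with both and 6.17 untreated. Divided by untreated and centred on the median over all shared regions, the ratios were 0.727 with IL-13 alone, 1.68 with vitamin D and 1.42 with both. The vitamin D ratio was the only one of the members' H3K4me3 ratios past 1.5. H3K9ac lay in 2 regions here. One gave 3.37 with IL-13, 8.17 with vitamin D and 5.76 untreated, with no call with both. The other, just before the start, gave 5.39 with IL-13 and 4.78 with both, with no call with vitamin D or untreated. The libraries that received vitamin D had the higher H3K4me3 enrichments at this start, and the IL-13 library the lowest. The H3K4me3 background, a measure of depth, was 0.378 fragments with IL-13, 0.63 with vitamin D, 0.726 with both and 0.459 untreated. The H3K4me3 summits at this start held 5, 18, 15 and 8 fragments in the same order. The libraries with vitamin D were thus also the deepest and the IL-13 library the shallowest, and the part of depth was not tested.

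**Figure D3:**
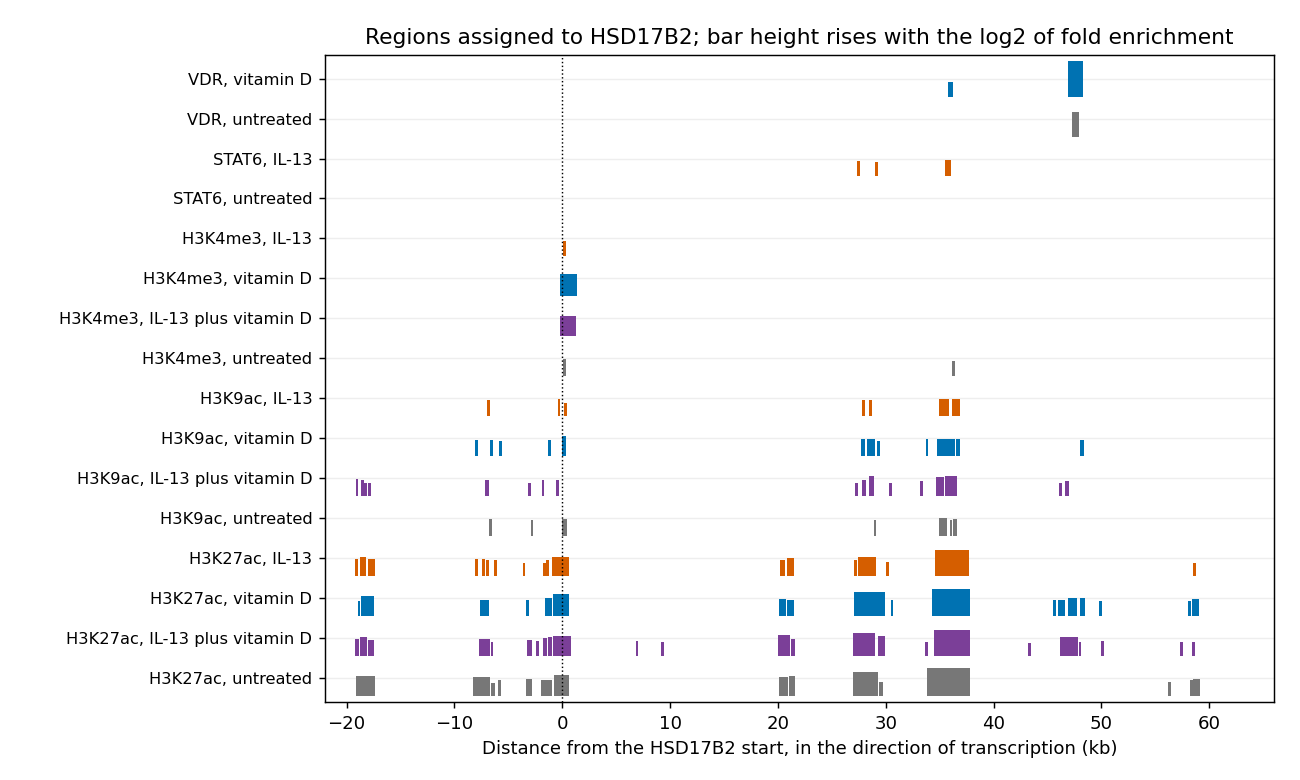
Regions assigned to HSD17B2 by distance from its start (kb), 1 row per library; bar width is the region (drawn at 0.25 kb where shorter), bar height rises with the log2 of the fold enrichment. Near 47.6 kb VDR is called with vitamin D and untreated, and H3K27ac and, at its edges, H3K9ac are called in the vitamin D and combined libraries alone; the STAT6 region at 35.8 kb lies over H3K27ac called in all 4 libraries.

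HSD11B1 and HSD11B2 act in opposite directions on glucocorticoids, the first mainly making active cortisol from cortisone and the second turning cortisol back into cortisone. HSD11B1 had 0.873 RPKM with IL-13, 1.45 RPKM with vitamin D, 0.911 RPKM with both and 1.38 RPKM untreated. HSD11B2 had 6.41 RPKM with IL-13, 9.48 RPKM with vitamin D, 5.03 RPKM with both and 11.8 RPKM untreated. Both genes were lower in the 2 groups that received IL-13, with log2 fold changes against untreated in the authors' deposited tables of -0.53 ± 0.163 with IL-13 (adjusted p 0.00571) and -0.54 ± 0.183 with both (adjusted p 0.0133) for HSD11B1. For HSD11B2 they were -0.87 ± 0.0734 with IL-13 (adjusted p 2.19e-30) and -1.19 ± 0.078 with both (adjusted p 4.46e-51) in the authors' deposited tables. Vitamin D gave 0.10 ± 0.155 for HSD11B1 (adjusted p 0.679) and -0.25 ± 0.06 for HSD11B2 (adjusted p 0.00019) in the authors' deposited tables. HSD11B2 was lower with both than with IL-13 alone by a derived log2 difference of -0.33 ± 0.0906 (z test, adjusted p 0.00209). No label or header gives the strand of the libraries, so reads from RNA antisense to a gene cannot be told apart from its own.

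HSD11B2 carried a broad H3K4me3 region at its start with a fold enrichment of 19.6 with IL-13, 22.7 with vitamin D, 22 with both and 19.2 untreated. The centred ratios lay between 1.05 and 1.09, so the H3K4me3 enrichment was nearly level while the RNA fell with IL-13. H3K9ac lay in separate regions at the HSD11B2 start. In 1 region it was 4.04 with IL-13 alone, 5.45 with vitamin D and 4.09 with both, against 6.48 untreated. These summits held only 5, 7, 5 and 8 fragments in the same order, with -log10 q (peak significance) of 2.41, 4.63, 2.54 and 6.39. The centred ratios there were 0.667, 0.889 and 0.667. Another region had centred ratios of 1 with vitamin D and 0.714 with both, and no call with IL-13. A further one was called only in the IL-13 library, at 4.04. H3K27ac at this start had centred ratios between 0.877 and 1.16. HSD11B1 had no H3K4me3 region in any library. Its VDR region with vitamin D, chr1:209846727-209847105, had a fold enrichment of 12 and was also assigned to G0S2 and LAMB3. The region lay 12.6 kb upstream of chr1:209859525, a start used in the peak lists. That start is itself upstream of the one given in the RNA tables. No H3K27ac was called at the VDR region.

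SRD5A1, which reduces testosterone to dihydrotestosterone, had 16.3 RPKM with IL-13, 14.1 RPKM with vitamin D, 15 RPKM with both and 14.7 RPKM untreated. It was called in none of the 4 deposited comparisons, with log2 fold changes of 0.13 ± 0.0567 with IL-13 alone (adjusted p 0.0728), -0.00 ± 0.0519 with vitamin D (adjusted p 0.965) and 0.04 ± 0.0625 with both (adjusted p 0.732), each against untreated in the authors' deposited tables. A p that misses the threshold does not show equal levels. It had the strongest H3K4me3 of the 8 genes, at 45.7 with IL-13, 57 with vitamin D, 51.6 with both and 50.7 untreated. A VDR region with vitamin D, chr5:6633259-6633817 (hg19), lay on the start with a fold enrichment of 8, in a promoter that SRD5A1 shares with NSUN2, the gene next to it. H3K9ac at that start was 8.75 with IL-13 alone, 6.81 with vitamin D and 6.82 with both, against 12.2 untreated, with centred ratios of 0.765, 0.588 and 0.588.

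SULT1E1, the estrogen sulfotransferase, had 4.49 RPKM with IL-13, 0.778 RPKM with vitamin D, 0.775 RPKM with both and 3.26 RPKM untreated. The 2 groups given vitamin D were nearly the same and well below the other 2. The log2 fold change against untreated in the authors' deposited tables was 0.42 ± 0.1 with IL-13 alone (adjusted p 0.000253), -1.81 ± 0.134 with vitamin D (adjusted p 2.54e-40) and -1.93 ± 0.142 with both (adjusted p 1.17e-40). Against vitamin D alone, the combination gave -0.03 ± 0.177 in the authors' deposited table (adjusted p 0.913). With both treatments SULT1E1 was lower than with IL-13 alone by a derived log2 difference of -2.35 ± 0.154 (z test, adjusted p 1.28e-50), and 2 of 7 members were called higher and 2 lower in that comparison, beside 24.7% of 14734 genes (12.5% higher, 12.3% lower). For SULT1E1 the IL-13 effect with vitamin D minus that without it was -0.45 ± 0.204 (adjusted p 0.36).

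SULT1E1 had no STAT6 and no VDR region in any list. H3K27ac close to its start was called with IL-13 at a fold enrichment of 4.63 (6 fragments at the summit, 1.4 kb into the gene) and untreated at 4.59 (10 fragments, 0.6 kb into the gene), within a region that overlapped between these 2 libraries. It was called in neither vitamin D library. The IL-13 library was the shallowest of the mark and the untreated library the deepest, and 3359 of 100632 H3K27ac regions, or 3.34%, had the same pattern of calls. The only H3K4me3 call was a weak one with vitamin D, at a fold enrichment of 3.68.

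SULT2B1, which sulfates cholesterol and DHEA and makes the cholesterol sulfate of keratinising epithelium, was the most abundant of the 8 genes. It had 82.1 RPKM with IL-13, 128 RPKM with vitamin D, 87.5 RPKM with both and 123 RPKM untreated, above 97.6% to 98.4% of genes. The groups with IL-13 were the low ones. The log2 fold change against untreated in the authors' deposited tables was -0.59 ± 0.0468 with IL-13 alone (adjusted p 1.29e-34), 0.11 ± 0.0402 with vitamin D (adjusted p 0.0173) and -0.47 ± 0.0618 with both (adjusted p 2.12e-13). Against IL-13 alone the combination gave a derived 0.11 ± 0.0645, which missed the threshold (z test, adjusted p 0.205).

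H3K4me3 at SULT2B1 lay at an upstream start, chr19:49055179-49057214, and not at the start given in the RNA tables. It had a fold enrichment of 17.4 with IL-13, 21.5 with vitamin D, 15.6 with both and 17.1 untreated. H3K27ac at the same start was 3.97 with IL-13, 7.51 with vitamin D, 5.75 with both and 10.4 untreated. The IL-13 ratio of 0.528 after centring was past 1.5 downward, as were 5.56% of 41723 shared regions. That IL-13 value came from 5 fragments at the summit (-log10 q 2.8), and the untreated value from 24 (19.9). The H3K27ac background was 0.512 fragments with IL-13 against 1.4 untreated, and the part of depth was not tested. SULT2B1 also had 5 VDR regions with vitamin D, of fold enrichment between 4.01 and 7.6, and 1 STAT6 region with IL-13 in an intron, chr19:49092335-49092694, of 4.45.

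**Figure D4:**
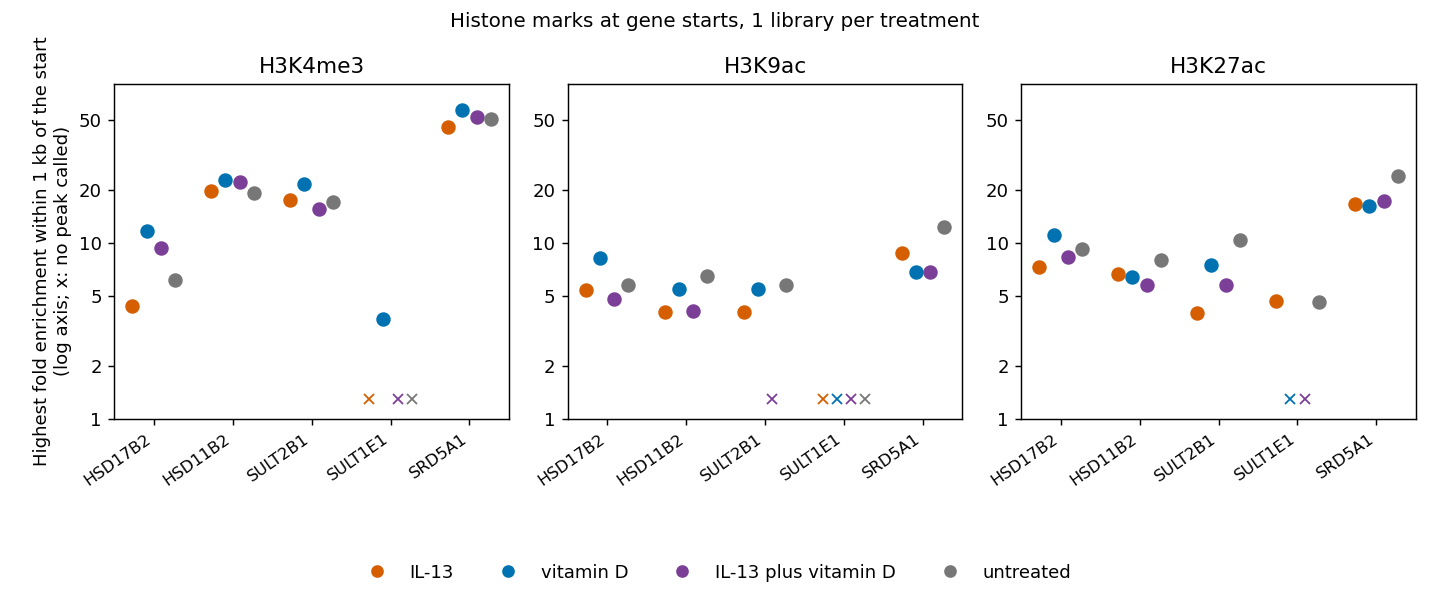
Highest fold enrichment (log axis) in regions that reach within 1 kb of the start of 5 genes, for 3 histone marks, 1 library per treatment; x marks no call. H3K4me3 at HSD17B2 runs between 4.35 with IL-13 and 11.7 with vitamin D, against 6.17 untreated, and at SRD5A1 it is above 45 in all libraries. HSD3B1, STS and HSD11B1, not drawn, had no histone region there.

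STS, the sulfatase that frees DHEA and estrone from their sulfates, had 1.21 RPKM with IL-13, 0.745 RPKM with vitamin D, 1.68 RPKM with both and 0.8 RPKM untreated. The log2 fold change against untreated in the authors' deposited tables was 0.53 ± 0.107 with IL-13 alone (adjusted p 6.05e-06), -0.04 ± 0.108 with vitamin D (adjusted p 0.814) and 1.03 ± 0.102 with both (adjusted p 5.23e-23). With both treatments STS was higher than with IL-13 alone by a derived 0.50 ± 0.103 (z test, adjusted p 1.14e-05). The IL-13 effect was larger with vitamin D than without it by 0.54 ± 0.145 (adjusted p 0.0129), and did not pass with the variance multiplied by 1.5. STS had no region of any mark or factor, as 19.8% of genes in the tables had none.

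Ratios to untreated past 1.5 were few over all members' regions. For H3K4me3 they numbered 0 of 5 regions with IL-13 (1.81% of all shared regions were higher and 2.23% lower), 1 of 4 with vitamin D, higher (3.12% higher and 1.21% lower), and 0 of 4 with both (2.8% higher and 1.58% lower). For H3K9ac they numbered 1 of 7 with IL-13, lower (5.09% higher and 6.31% lower), 2 of 10 with vitamin D, 1 each way (6% higher and 5.46% lower), and 2 of 6 with both, 1 each way (5.66% higher and 6.5% lower). For H3K27ac they numbered 3 of 19 with IL-13, 1 higher and 2 lower (8.96% higher and 5.56% lower), 0 of 21 with vitamin D (6.16% higher and 4.12% lower), and 1 of 18 with both, higher (9.12% higher and 5.86% lower). The 3 H3K9ac and H3K27ac gains with IL-13 or with both lay at HSD17B2, and the H3K9ac gain with vitamin D lay at SULT2B1. The H3K9ac fall with IL-13 also lay at HSD17B2, at its start, with a centred ratio of 0.625. Those of H3K9ac with vitamin D and with both lay at the SRD5A1 start, at 0.588 each. Both H3K27ac falls with IL-13 lay at SULT2B1, 1 at its start (0.528) and 1 at chr19:49046382-49049165 (0.637). The H3K27ac gains with IL-13 and with both were in 1 region, chr16:82062224-82062718, which was also assigned to SDR42E1. Its peaks had a -log10 q of 3.85 with IL-13, 2.6 with both and 2.31 untreated. A further 4 ratios equalled the threshold within 0.01% and were not counted, nor were such ratios in these shares: 1.5 for H3K9ac at HSD17B2 and H3K27ac at HSD11B1 with vitamin D, and 0.667 for H3K9ac at HSD11B2 with IL-13 and with both. With ties counted, a setting chosen after the data were seen, H3K9ac numbered 2 of 7 with IL-13, both lower (6% of all shared regions higher and 8.21% lower), 3 of 10 with vitamin D, 2 higher and 1 lower (7.62% and 5.96%), and 3 of 6 with both, 1 higher and 2 lower (6.22% and 7.63%). H3K27ac then numbered 1 of 21 with vitamin D, higher (6.93% higher and 4.53% lower).

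Over the 8 genes, 3 had a STAT6 region with IL-13 and 5 had a VDR region with vitamin D, where 9.87% and 23.6% of 23531 genes did. Those shares are over all genes, silent ones included, so they are no measure of enrichment. The members' numbers came from 5 STAT6 and 10 VDR regions, and the VDR regions of HSD11B1 and SRD5A1 were also assigned to neighbouring genes. The genes with STAT6 were HSD3B1, HSD17B2 and SULT2B1, of which HSD3B1 and HSD17B2 were higher and SULT2B1 lower with IL-13. The VDR genes were HSD3B1, HSD17B2, HSD11B1, SULT2B1 and SRD5A1, of which, with vitamin D alone, HSD17B2 and SULT2B1 were called higher and the others were not called. SULT1E1, with the largest fall under vitamin D, was not among them.

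Among 11519 genes at or above 1 RPKM in at least 1 group, the 3 whose log2 fold changes against untreated in the authors' deposited tables lay closest to those of SULT1E1 were CXCL14, SERPINB11 and FILIP1L, at Euclidean distances of 0.451, 0.501 and 0.835 over the 3 contrasts. CXCL14, a chemokine of epithelia, had 12.8 RPKM with IL-13, 3.62 with vitamin D, 3.6 with both and 12.1 untreated. For HSD3B1 they were NFE2, RASL11B and RPTN, at 0.771, 0.86 and 1.19. The HSD3B1 distances rest on deposited fold changes, which with IL-13 lay below its log2 RPKM ratio at a pseudocount of 0.1 RPKM. RPTN, which encodes the cornified envelope protein repetin, had 27.4 RPKM with IL-13, 12.9 with vitamin D, 84 with both and 5.77 untreated.

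A wider list of 94 further genes of steroid synthesis, conversion, sulfation, hydroxylation, transport and reception had 92 in the tables. According to the authors' deposited tables, 8 were called higher and 8 lower of 59 tested with IL-13, and 13 higher and 11 lower of 59 with vitamin D. With both treatments 12 were called higher and 9 lower of 66, each against untreated. Against vitamin D alone, the combination had 13 higher and 12 lower of 58. These calls made up 27.1%, 40.7%, 31.8% and 43.1% of the genes tested, beside 26.3%, 32.5%, 31.7% and 33.2% over all genes, and the median log2 fold change of the list lay between -0.03 and 0.03.

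In the synthesis group CYP11A1, the side-chain cleavage enzyme that makes pregnenolone, had 0.553 RPKM with IL-13, 0.137 with vitamin D, 0.613 with both and 0.0828 untreated, with a log2 fold change of 1.28 with IL-13 and 1.99 with both in the authors' deposited tables. Like HSD3B1 it was low without IL-13. STAR, which carries cholesterol to CYP11A1, was at 0.162 RPKM with IL-13, 0.0534 with vitamin D, 0.113 with both and 0.137 untreated, called lower with vitamin D at -0.53 in the authors' deposited table. FDXR, a reductase that feeds electrons to CYP11A1, had log2 fold changes of -0.36 with vitamin D and -0.50 with both in the authors' deposited tables.

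Among sulfation genes PAPSS2, which makes the sulfate donor of the sulfotransferases, had 1.83 RPKM with IL-13, 0.446 with vitamin D, 3.36 with both and 0.47 untreated, with a log2 fold change of 1.73 with IL-13 and 2.72 with both in the authors' deposited tables. SLC26A2, a sulfate transporter, had 17.4 RPKM with IL-13, 1.86 with vitamin D, 8.72 with both and 2.7 untreated, with a log2 fold change of 2.62 with IL-13 alone, -0.48 with vitamin D and 1.67 with both in the authors' deposited tables. Both were higher with IL-13, with which SULT2B1 was lower. SULT1B1 was lower with both treatments, at -1.21 in the authors' deposited table, from RPKM of 0.0729 with both and 0.356 untreated, and SULT1A1 was higher with vitamin D at 0.66 in the authors' deposited table. ARSB, a sulfatase of glycosaminoglycans, was higher with both than with vitamin D alone at 0.32 in the authors' deposited table.

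The aldo-keto reductases AKR1C1, AKR1C2 and AKR1C3 are related copies, so counting could have split any reads that they share. AKR1C1, which inactivates progesterone, had 9.03 RPKM with IL-13, 26.8 with vitamin D, 31.7 with both and 14.1 untreated, with log2 fold changes of -0.63, 0.97 and 1.16 with IL-13, vitamin D and both in the authors' deposited tables. AKR1C3, which makes testosterone from androstenedione, was lower with IL-13 at -1.16 and with both at -0.53 in the authors' deposited tables. AKR1C2 was lower with IL-13 at -0.65, and HSD17B3, the testis enzyme for testosterone, was lower with both at -0.63, in the authors' deposited tables. Of the hydroxylases, CYP1B1, which acts on estradiol, had log2 fold changes of 1.62 with IL-13 alone, -1.07 with vitamin D and 1.36 with both, and CYP3A5 had 1.47 with vitamin D and 1.19 with both, in the authors' deposited tables. CYP1A1, which also hydroxylates estradiol, was higher with vitamin D at 0.68 in the authors' deposited table. CYP7B1, an oxysterol hydroxylase, was called higher with both at 1.10 in the authors' deposited table, at only 0.0976 RPKM with both and 0.00568 untreated.

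SLC10A6, a carrier for sulfated steroids, had 1.38 RPKM with IL-13, 2.4 with vitamin D, 1.13 with both and 3.24 untreated, with log2 fold changes of -1.09, -0.35 and -1.42 with IL-13, vitamin D and both in the authors' deposited tables. ABCG2, which exports sulfated steroids among many substrates, was higher with both at 1.49 in the authors' deposited table, from 0.281 RPKM with both and 0.0749 untreated. SLCO3A1 was higher with IL-13 at 0.88 and SLCO4A1 lower at -0.55 in the authors' deposited tables, both organic anion carriers. With vitamin D the directions were the opposite, SLCO3A1 at -0.30 and SLCO4A1 at 0.74, both called in the authors' deposited table. The estrogen receptor ESR1 was higher with vitamin D at 1.05 in the authors' deposited table, at 0.502 RPKM with vitamin D and 0.227 untreated, and the progesterone receptor PGR was listed at 0 RPKM in all 4 groups. The related receptor genes ESRRA and PGRMC2 rose by 0.15 with vitamin D (ESRRA) and by 0.18 with both against vitamin D alone (PGRMC2) in the authors' deposited tables.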

How the data were processed

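RNA was measured by sequencing in 12 samples and chromatin by ChIP-seq in 16 single libraries of EPC2 cells. Tools in the submitters' processing notes are MACS2, Bowtie, STAR, SAMtools and Trim Galore, with builds hg19 and GRCh37 and no versions. RPKM values were deposited by the authors, 1 per group per the file headers. The log2 fold changes, p-values and adjusted p-values are also deposited by the authors, and no source used here names their test. An adjusted p deposited as 1 was read as not tested. The pileup is a signal deposited by the authors, the number of fragments stacked at a summit. Fold enrichment is the ratio of pileup to background that the authors deposited, read here with 1 added to each. Peak significance came as -log10 p and -log10 q, as deposited. Genes were linked to peaks by the annotation deposited by the authors.

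Standard errors were computed back from the fold change and p of each table. By its headers and values, the table named as IL-13 against both treatments compares vitamin D with both. IL-13 plus vitamin D against IL-13, and the difference of the IL-13 effects, were derived by subtracting tables and tested with z tests, Benjamini-Hochberg adjusted at 0.05 over 14734 genes; 11 genes with a log2 disagreement between tables above 0.5 were left out. These scripts were tested on simulated data. Peaks of 1 mark overlapping by at least 1 base were joined, and ratios of the highest fold enrichment to untreated were centred on the median over regions in both libraries, with 1.5 in either direction as the size named. Mitochondrial peaks were left out. The single ChIP libraries allow no test. Depth was read from the background of each library; VDR pileups with vitamin D were scaled (0.0955% whole numbers).

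The 8 genes and all lists were chosen with earlier results of these data known, so deposited and derived p-values of these genes are descriptions. Of the wider list, genes called with a log2 fold change of at least 1 in size were named, plus up to 2 further called genes per role with the largest size; some genes of the lists are not reported here. Promoters came from RefSeq (GRCh38.p14) and peak coordinates are hg19. Alternatives tried were another threshold, filter, pseudocount, variance, peak height, -log10 q and overlap. Python 3.11.15, pandas 2.3.3, NumPy 2.4.6, SciPy 1.17.1 and Matplotlib 3.10.9 were used.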

Additional observations from a re-analysis of the deposited data

Results flagged for a closer look

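HSD17B2 and STS had IL-13 effects that differed between cells with and without vitamin D, by the test of the difference itself. For HSD17B2 the effect was smaller with vitamin D, by -0.39 ± 0.0965 on the log2 scale (z test from deposited values, adjusted p 0.00362). For STS it was larger, by 0.54 ± 0.145 (adjusted p 0.0129). Both rest on standard errors derived from deposited p-values, since the spread between samples was not at hand.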

How the results depend on the processing

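No value called in the deposited comparisons changed sign under the alternatives run. In the derived comparisons the alternatives changed only the threshold, gene filter or variance, so a sign could not change there. The count of genes whose IL-13 effect differed with vitamin D was 357, and 229 at an adjusted p below 0.01 and 166 with the variance multiplied by 1.5; at that variance HSD17B2 (-0.39) and STS (0.54) no longer passed, and STS also missed 0.01. These changes follow from the stricter settings. Ratios of members' regions past 1.5 numbered 1 for H3K4me3, 5 for H3K9ac and 4 for H3K27ac, and 0 for each mark past 2. With ratios equal to 1.5 counted, a setting added after the data were seen, the H3K9ac count was 8, against 5. With pileup in place of fold enrichment the counts were 11 for H3K9ac and 8 for H3K27ac. With -log10 q of at least 5 they were 2 for H3K9ac and 2 for H3K27ac, and members' regions fell to 2 for STAT6 and 5 for VDR, against 5 and 10. With a stricter overlap, set by the shorter region, the H3K27ac count was 8; the cause of the pileup and overlap changes was not tested. The other 24 alternatives for counts stayed within 1.5 times the main count. Of the alternative values of single genes in the deposited comparisons, 89 stayed within 1 SE and 39 moved further. All of these alternatives were RPKM ratios with a pseudocount. No paired analysis was possible because the tables hold 1 value per group. No replicate could be left out, since the RNA tables give 1 value per group and each ChIP condition is 1 library. RPKM hides read depth, and the depth of single ChIP libraries limits what absent calls mean.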
